A study of Homo sapiens with 6 samples.

Results

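The difference between the response to a TP63 hairpin and the response to a SOX2 hairpin was taken for 10536 of the 48644 genes measured in KYSE70 cells, a line established from a human squamous carcinoma of the esophagus. For each gene, the level at day 0 was subtracted from the mean of both day 4 levels within each hairpin line, and the SOX2 line's response was then subtracted from the TP63 line's. A positive difference means that the gene stood higher after induction, relative to its own day 0, in the TP63 line than in the SOX2 line. The genes kept were those with a mean linear value of at least 1 over the 6 libraries. Among them, 15 genes had opposite responses in the lines and 195 had a response confined to one line, by rules of size given below; these 210 genes are 1.99% of those tested. For 92 of these 210 genes (43.8%) at least 50% of the difference lay in levels that already differed between the lines at day 0. The same held for 40.2% of all tested genes.

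SOX2 and TP63 encode transcription factors that mark the basal layer of stratified squamous epithelium, where p63 maintains the proliferating compartment and SOX2 takes part in foregut and esophageal identity. Both genes lie in a chromosome segment that is often amplified in squamous cancers, and the proteins are known to bind many of the same sites. In a difference of responses, a change of equal size in both lines cancels out. A change that is shared but unequal in size does not, and levels that differed between the lines at day 0 also enter it.

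Poly(A) RNA was measured by sequencing in 4 groups, all KYSE70 cells that carry a stable doxycycline-inducible pLKO-Tet-On hairpin. The shSOX2 line without doxycycline (day 0) had 1 library. After 4 days of doxycycline at 50 ng/ml (day 4) there were 2 libraries, taken here as the same line. The shTP63 line likewise had 1 library at day 0 and 2 at day 4. No line with a control hairpin entered these groups, so doxycycline itself and hairpin expression are shared by every day 4 library. The labels number the libraries: both day 0 libraries carry the number 2, and each line's day 4 libraries carry 2 and 1. The numbers may mark replicates, as assumed here, or separate hairpins to one target, and nothing states that they came from separate cultures, so errors measure only the spread between these libraries. Levels are log2(RPKM + 1), with base 2 assumed, which understates the change of low genes. Differences are on the same log2 scale, and errors after ± are standard errors from limma, fitted over the 6 libraries. The 1 library per line at day 0 gives no spread, so these errors rest on the day 4 pairs. The day 0 libraries were assumed to vary like those pairs, which was not measured.

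The table holds no counts, so the depth of each library is unknown. The shTP63 day 0 library had 16167 genes above 0 against 21530 to 23509 in the other libraries. Of the tested genes 56 were at 0 in it, against 0 to 5 elsewhere. All 11 squamous markers (TP63, SOX2, KRT5, KRT14, KRT6A, KRT13, DSG3, DSC3, PKP1, TRIM29 and PERP) were above 0 in every library, with summed linear levels of 708 to 2964. Of 15 leukocyte and endothelial markers 1, CD68, passed the filter; CD3E, CD3D, MS4A1 and KDR were at 0 throughout, and the summed level was 1.35 to 6.80. The summed level of 7 fibroblast markers, mostly COL3A1, was 5.39 to 158 and lowest in both day 0 libraries. That of 6 columnar markers was 95.3 to 310 and almost wholly KRT8 and KRT18. KRT20, MUC5AC and VIL1 lay near 0, and CDX2 was at 0 throughout. In bulk RNA, fewer cells of a type and less RNA per cell cannot be told apart.

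The hairpin targets behaved differently in the difference. TP63 stood at 3.61 at day 0 and 3.91 and 3.93 at day 4 in the SOX2 line, and at 3.99 at day 0 and 2.26 and 2.11 at day 4 in the TP63 line. Both induced TP63 libraries lay below all 4 others, and the difference of responses was −2.12 ± 0.46. SOX2 stood at 6.25 at day 0 and 5.65 and 4.67 at day 4 in the SOX2 line, and at 5.69 and then 5.55 and 5.41 in the TP63 line. The induced SOX2 library numbered 2 overlapped the TP63 line, and the difference was 0.88 ± 0.64. Of that difference, 63.4% lay in the day 0 gap, the TP63 line starting 0.56 below the SOX2 line.

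Across all genes, limma passed 0 of 10536 differences of responses at an adjusted p under 0.05, and the smallest adjusted p was 0.962. An unadjusted p under 0.05 was reached by 479 genes, or 4.55%, where 526.8 would be reached with no difference at all. Within the lines, limma passed 2 genes in the TP63 line (0.019%), FOSL1 with a response of −3.91 ± 0.32 and an adjusted p of 0.0317 and ZNF467 with 3.56 ± 0.32 and an adjusted p of 0.0332. Both calls were lost when either induced SOX2 library was left out and with the replicate block, which left 0 in each case. It passed 0 genes in the SOX2 line. ZNF467 was named after its value was seen. A difference of at least 2-fold either way was found in 902 genes, or 8.56%. Each day 4 library of one line can be paired with each of the other, and all 4 pairings gave a positive difference in 29% of genes and a negative one in 25%. The SD of the difference across genes was 0.591. An SD of 0.605 would follow if the single day 0 libraries varied like the day 4 pairs and nothing else differed. No difference described below therefore passed a test, and the values that follow are descriptions by size.

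A gene was counted as opposite where all 4 day 4 libraries lay at least 1.5-fold (0.585 on the log2 scale) from the day 0 library of their own line, both of one line above and both of the other below. It was counted as confined to a line where both day 4 libraries of that line lay at least 2-fold from day 0 the same way and both of the other line lay within 0.5 of theirs. These rules used the same levels as the difference, so the counts carry no test. Opposite responses were found in 7 genes above day 0 in the TP63 line (0.0664% of genes tested) and in 8 below day 0 there (0.0759%). Confined responses were found in 73 genes above day 0 in the TP63 line (0.693%), 55 below it there (0.522%), 51 above day 0 in the SOX2 line (0.484%) and 16 below it there (0.152%). A looser condition, opposite signs in all 4 day 4 libraries at any size, was met by 1506 genes (14.3%).

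**Figure D1:**
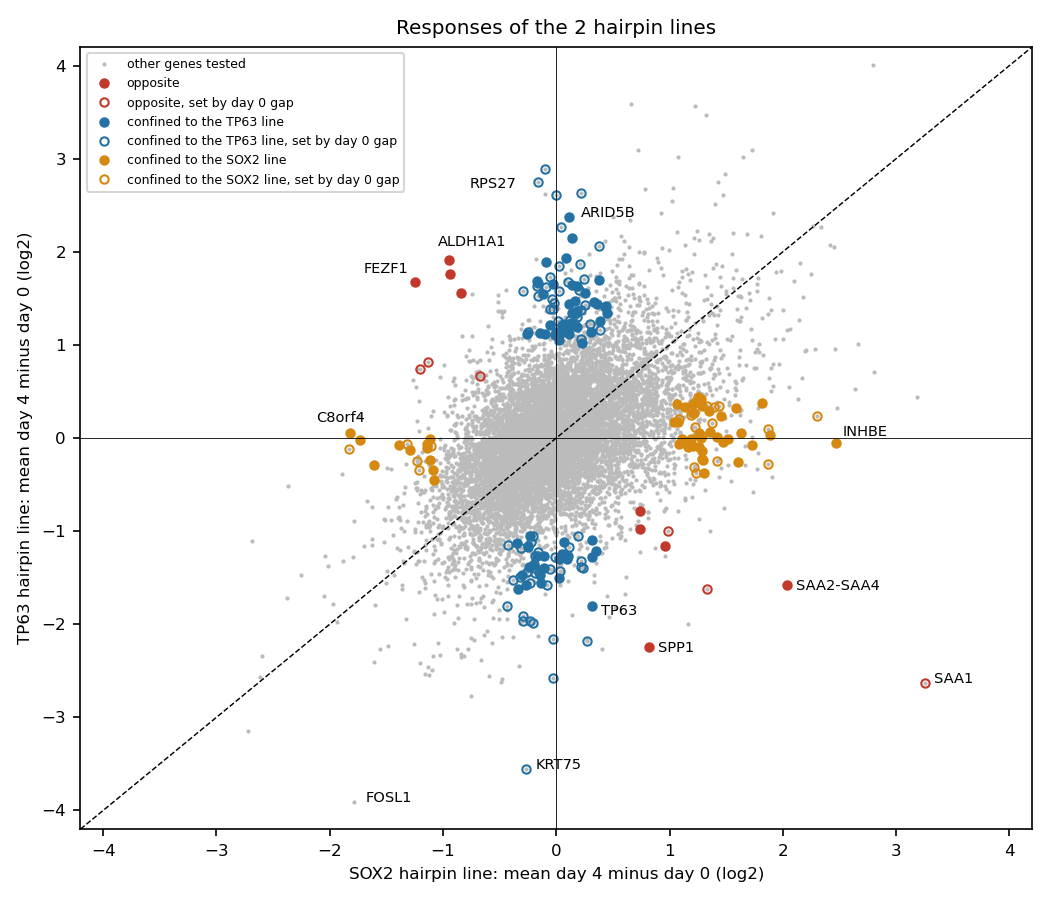
Response of each tested gene in the SOX2 hairpin line (x axis) and in the TP63 hairpin line (y axis), each as the mean day 4 level minus the day 0 level on the log2 scale; filled and open circles are genes with opposite or confined responses, open where at least 50% of the difference lies in the day 0 gap, and the dashed line marks equal responses. The 15 opposite genes lie in the upper left and lower right quadrants, and FOSL1, far below 0 in both lines, still lies off the line of equal responses.

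The difference of responses equals the gap between the lines at day 4 minus the gap between them at day 0, by construction. A gene is called set by the day 0 gap where minus the day 0 gap makes up at least 50% of the difference. This held for 3 of the 7 and 3 of the 8 opposite genes. Among the confined genes it held for 34 of 73 and 32 of 55 in the TP63 line, and for 15 of 51 and 5 of 16 in the SOX2 line. In all it held for 92 of 210, or 43.8%, beside 40.2% of all tested genes. The exact 95% interval of 37.0% to 50.8% takes the genes as independent, though all share both day 0 libraries. It covers counting error only.

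Of the 7 genes that were higher at day 4 in the TP63 line and lower in the SOX2 line, 4 were not set by the day 0 gap. FEZF1, a zinc-finger transcription factor of the forebrain, stood at 2.53 at day 0 and 1.05 and 1.51 at day 4 in the SOX2 line, and at 1.82 and then 3.39 and 3.60 in the TP63 line. At day 4 the lines did not overlap, and the 2.21 gap between them was larger than the day 0 gap of −0.71, which ran the other way. The difference of responses was 2.92 ± 0.48. ALDH1A1, a retinaldehyde dehydrogenase of retinoic acid synthesis, went from 4.92 to 3.63 and 4.32 in the SOX2 line and from 3.59 to 5.49 and 5.52 in the TP63 line. Its difference of 2.86 ± 0.56 held a day 0 gap of −1.33, which is 46.6% of it and close under the limit. PRR15 went from 1.41 to 0.75 and 0.40 in the SOX2 line and from 0.43 to 2.32 and 1.65 in the TP63 line, a difference of 2.40 ± 0.51. RP11-560I19.4 had a difference of 2.69 ± 0.45 with 46.4% of it in the day 0 gap. The 3 genes set by the day 0 gap were RPS26P47 with a difference of 1.95, RAB11FIP1, an effector of Rab11 in endosome recycling, with 1.94, and RP11-950C14.3 with 1.33.

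Of the 8 genes that were lower at day 4 in the TP63 line and higher in the SOX2 line, SPP1 started nearly level. SPP1, which encodes the secreted integrin-binding protein osteopontin, stood at 6.97 at day 0 and 7.95 and 7.62 at day 4 in the SOX2 line. In the TP63 line it stood at 6.62 and then at 3.73 and 5.03. All 3 SOX2 line libraries lay above the day 0 TP63 library, and both induced TP63 libraries lay below every other. The day 4 gap was −3.41 ± 0.43 and the day 0 gap −0.34, so the difference of −3.06 ± 0.75 was smaller in size than the day 4 gap.

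The largest differences of all belonged to the serum amyloid genes, which encode acute-phase proteins, and these started apart. SAA1 stood at 1.07 at day 0 and 5.70 and 2.95 at day 4 in the SOX2 line, and at 4.06 and then 1.28 and 1.58 in the TP63 line. Its difference of −5.88 ± 1.31 held a day 0 gap of 2.98, or 50.7%. SAA2-SAA4 stood at 0.24 and then 3.37 and 1.19 in the SOX2 line and at 1.94 and then 0.22 and 0.49 in the TP63 line, a difference of −3.62 ± 1.05 with 46.9% in the day 0 gap. These loci are near-identical neighbours and may share reads, so they are not independent of each other. The induced SOX2 libraries differed more from each other for SAA1 than did the induced TP63 libraries.

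Noncoding RNAs made up much of the remaining opposite set. TERC, the RNA template of telomerase, went from 3.86 to 5.14 and 4.50 in the SOX2 line and from 4.55 to 3.80 and 2.97 in the TP63 line, a difference of −2.12 ± 0.66. RMRP, the RNA of RNase MRP, had a difference of −1.99 ± 0.36 that was wholly a day 0 gap of 2.47: the TP63 line stood at 11.69 and then 10.68 in both libraries, and the SOX2 line at 9.21 and then 10.31 and 10.09. RNU2-6P, a U2 small nuclear RNA pseudogene named after its value was seen, had a difference of −2.95 with 60.3% in the day 0 gap. TERC and RMRP lack long poly(A) tails in their mature form, and how much of each the poly(A) selection kept was not measured. RP11-304L19.4 had −1.72 ± 0.46. HS3ST3A1, a heparan sulfate sulfotransferase, had −1.52 ± 0.42 and was among the genes closest to the 1.5-fold limit. Its smallest of 4 changes was 0.65, and that of TERC was 0.64. SIRPA at 0.56 and AC008687.1 at 0.58 fell just outside. In the other direction RP11-950C14.3 and ALDH1A1 were just inside at 0.60, and BPNT1 and RP11-316M1.11 just outside at 0.57.

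**Figure D2:**
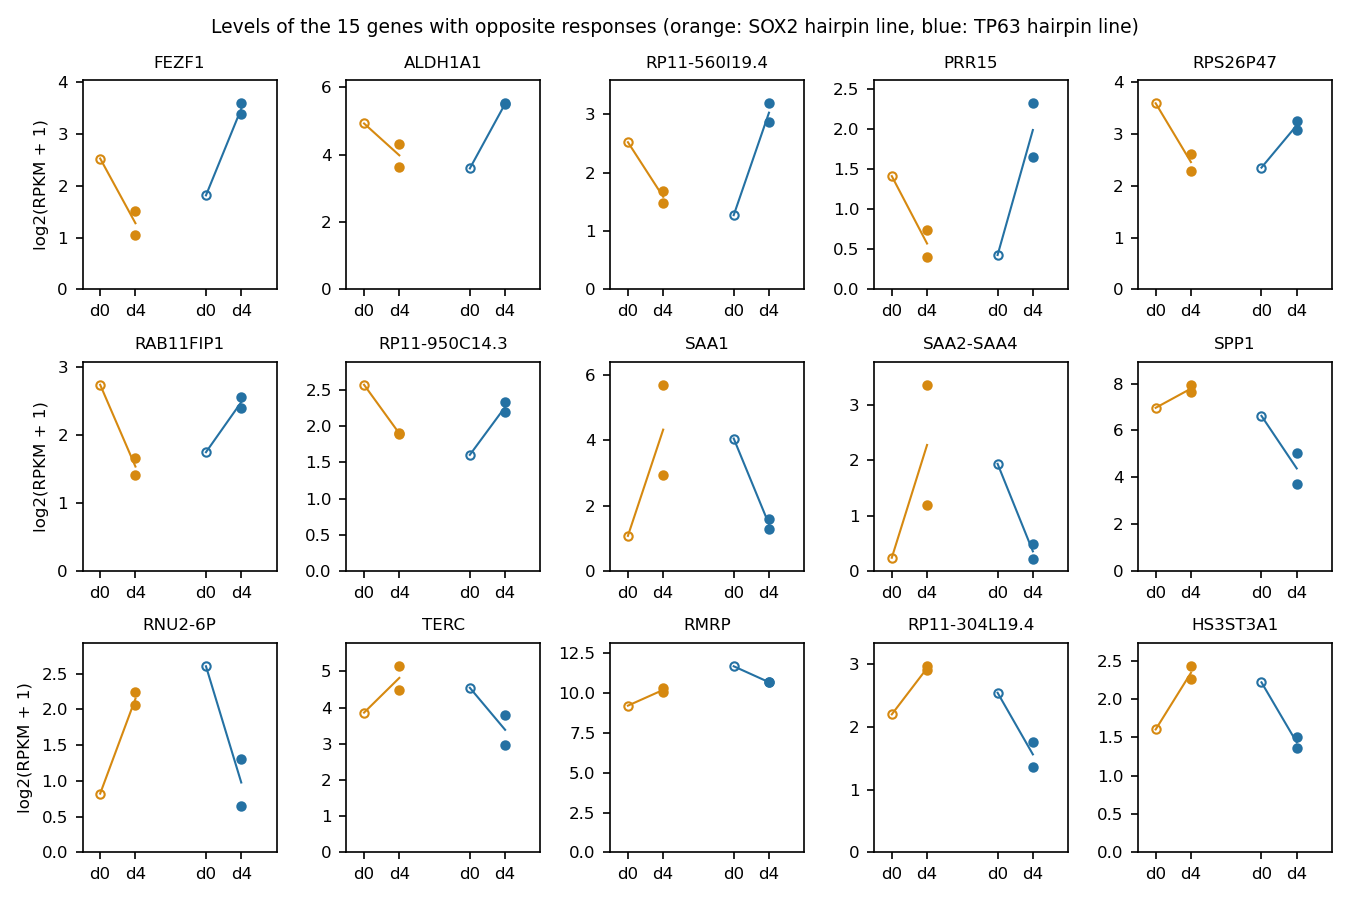
Level of each of the 15 genes with opposite responses in every library (y axis, log2(RPKM + 1), from 0), at day 0 (d0, open circle, 1 library) and day 4 (d4, filled circles, 2 libraries) in the SOX2 line (orange, left) and the TP63 line (blue, right); lines run from day 0 to the mean of the day 4 libraries. SPP1 starts at 6.97 and 6.62 in the lines, whereas RMRP and SAA1 start far apart.

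The 250 bases before the annotated start of SPP1, FEZF1 and ALDH1A1 are shown because these protein-coding genes had the largest opposite differences not set by the day 0 gap outside the overlapping serum amyloid loci. Sequences are from RefSeq on GRCh38.p14, 5′ to 3′ on the gene's strand, and capitals mark the SOX core ACAAT or its reverse complement.
SPP1: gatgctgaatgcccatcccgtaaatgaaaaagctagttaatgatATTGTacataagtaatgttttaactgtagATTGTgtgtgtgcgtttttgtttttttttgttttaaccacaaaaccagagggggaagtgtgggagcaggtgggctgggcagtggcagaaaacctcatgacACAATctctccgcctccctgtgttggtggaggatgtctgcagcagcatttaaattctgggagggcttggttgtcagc
FEZF1: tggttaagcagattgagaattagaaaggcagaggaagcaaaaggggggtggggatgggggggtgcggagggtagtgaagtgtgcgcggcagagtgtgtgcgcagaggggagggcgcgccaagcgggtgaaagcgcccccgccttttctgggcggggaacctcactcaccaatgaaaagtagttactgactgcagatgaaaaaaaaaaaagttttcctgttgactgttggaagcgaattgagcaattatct
ALDH1A1: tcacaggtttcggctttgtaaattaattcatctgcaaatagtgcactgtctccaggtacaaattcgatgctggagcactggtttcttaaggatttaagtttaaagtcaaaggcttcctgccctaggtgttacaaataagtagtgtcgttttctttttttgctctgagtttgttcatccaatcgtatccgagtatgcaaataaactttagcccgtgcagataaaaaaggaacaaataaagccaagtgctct

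The SPP1 window lies at chr4:87975464-87975713 on the plus strand, the FEZF1 window at chr7:122304751-122305000 on the minus strand and the ALDH1A1 window at chr9:72953054-72953303 on the minus strand. Both strands were searched for ACAAT, for the AP-1 motif TGANTCA and for a pair of p53-family half-site cores (CATG, 6 bases, CATG); none of these motifs holds another. SPP1 held 3 matches, all to the SOX core, at 206 to 202, 177 to 173 and 77 to 73 bases before the start. The FEZF1 and ALDH1A1 windows held none of the 3 motifs. The SOX core is short and was present in 25.2% of 27305 promoters of the same length, with at least 3 copies in 1.46%. Among the 6851 tested genes with a promoter in the table these shares were 13.9% and 0.234%. A match describes letters only, and binding was not measured here.

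Responses confined to the TP63 line numbered 128 and those confined to the SOX2 line 67 with each line's own day 0 library. The order turned with shTP63 day 0 as control of both lines (37 and 22 against 105 and 30) and without the SOX2 day 4 library numbered 1 (123 and 106 against 176 and 91). Of the 73 genes above day 0 only in the TP63 line, 39 were not set by the day 0 gap, and 30 of the 39 were protein-coding. ARID5B, a DNA-binding protein of the ARID family, stood at 1.95 at day 0 and 2.06 in both day 4 libraries of the SOX2 line. In the TP63 line it stood at 1.64 and then at 4.12 and 3.91, so the induced TP63 libraries lay far above the 4 others, and the difference was 2.26 ± 0.44. PARP4, a poly(ADP-ribose) polymerase family member of vault particles, went from 2.08 to 3.91 and 3.62 in the TP63 line and from 2.54 to 2.35 and 2.39 in the SOX2 line, a difference of 1.85 ± 0.46. BMF, a BH3-only protein that promotes apoptosis, went from 0.25 to 2.04 and 1.75 against 0.48 to 0.55 and 0.70, a difference of 1.5 ± 0.40. GBP6, an interferon-related guanylate-binding protein, differed by 1.83, CCNDBP1, a partner of cyclin D, by 1.68 and ANXA6, an annexin, by 1.66. For GBP6 and CCNDBP1 the day 0 gap was 47.1% and 45.2% of the difference. CDKN1A, the cyclin-dependent kinase inhibitor p21, was higher in the TP63 line already at day 0, by 0.92, and its difference of 1.30 ± 0.52 added to that gap.

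Of the 55 genes below day 0 only in the TP63 line, 23 were not set by the day 0 gap. TP63 itself had the largest difference among those named. SERPINE2, a secreted serine protease inhibitor, went from 3.70 to 2.59 and 2.25 in the TP63 line and from 3.30 to 3.75 and 3.48 in the SOX2 line, a difference of −1.59 ± 0.49. ALG3, a mannosyltransferase of N-glycan assembly, went from 5.65 to 4.54 and 4.33 against 5.85 to 6.30 and 6.09, a difference of −1.57 ± 0.49. In both genes the induced TP63 libraries lay below all others. GLB1L2 differed by −1.52, CDCA4 by −1.42 and C1orf27 by −1.41. GLB1L2 stood lower in the TP63 line already at day 0, by 0.76, so its day 4 gap of −2.28 was wider than its difference of responses. SPRY4, a feedback inhibitor of ERK signalling, went from 1.83 to 0.45 and 0.43 in the TP63 line and from 1.67 to 1.51 and 1.33 in the SOX2 line, a difference of −1.14 ± 0.39.

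Of the 51 genes above day 0 only in the SOX2 line, 36 were not set by the day 0 gap. INHBE, the inhibin beta E subunit and a known target of the integrated stress response, stood at 0.48 and then 3.90 and 2.00 in the SOX2 line and at 1.24 and then 0.95 and 1.42 in the TP63 line. Its induced SOX2 libraries were far from each other, and the difference of −2.53 had a standard error of 0.96. NXPH4, a neurexophilin, went from 2.56 to 4.63 and 3.69 in the SOX2 line and from 2.71 to 2.31 and 2.60 in the TP63 line, a difference of −1.86 ± 0.63. CGB7, a chorionic gonadotropin beta subunit with near-identical copies, differed by −1.85, S1PR5, a sphingosine-1-phosphate receptor, by −1.80, DPM3, a subunit of dolichol-phosphate-mannose synthase, by −1.68 and IL20RB-AS1 by −1.57. SLC1A5, a glutamine transporter, went from 5.99 to 7.42 and 7.16 in the SOX2 line and from 5.58 to 5.38 and 5.32 in the TP63 line, with no overlap between the induced lines. THY1, a surface glycoprotein, differed by −1.53 ± 0.58.

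Of the 16 genes below day 0 only in the SOX2 line, 11 were not set by the day 0 gap. C8orf4 stood at 3.13 and then 1.15 and 1.46 in the SOX2 line, and at 3.37 and then 3.35 and 3.49 in the TP63 line, a difference of 1.88 ± 0.46. The induced SOX2 libraries were the lowest of the 6 and all others lay close together. KRT8, a keratin of simple epithelium with many pseudogene copies, went from 7.92 to 6.20 and 6.41 in the SOX2 line and from 7.66 to 7.34 and 7.39 in the TP63 line, a difference of 1.31 ± 0.45. Its partner KRT18 was lower at day 4 in both lines, with responses of −1.51 in the SOX2 line and −0.88 in the TP63 line. EZR, which links the membrane to actin, differed by 1.31, MRPL16, a mitochondrial ribosomal protein, by 1.17 and RBM47, an RNA-binding protein, by 1.11. SOX21, a SOX family repressor, and its antisense partner SOX21-AS1 lay on either side of the day 0 limit, with 50.9% and 47.8% of the same difference of 1.71 in the day 0 gap. No strand-specific step is stated, so the reads of these partners cannot be told apart.

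The leading genes set by the day 0 gap show what the flag picks out. RPS27, a ribosomal protein, stood at 4.14 in the day 0 TP63 library and then at 6.16 and 7.62, while the SOX2 line stood at 7.33 and then 7.26 and 7.07. The induced lines overlapped, and the difference of 2.91 arose from a day 0 gap of −3.19. RP11-543P15.1, with 2.99, and RP11-175B9.3, with 2.61, had the same form. RPS27 and other ribosomal protein genes have many processed pseudogenes, so their reads may be split. KRT75, a keratin of the hair follicle, stood at 4.16 in the day 0 TP63 library against 0.46 in the day 0 SOX2 library, and then at 1.04 and 0.15 against 0.20 and 0.19, a difference of −3.29. RP11-1020M18.10 followed it, with −2.55. CDH1, which encodes E-cadherin, was low in the day 0 TP63 library alone, at 1.87 against 3.50, and stood at 3.86 and 5.13 after induction against 3.81 and 3.62. In 16 of the 73 genes above day 0 only in the TP63 line a library was at 0, beside 63 of all 10536 tested genes. Among all 210 opposite or confined genes the count was also 16. Of the tested genes 56 were at 0 in the shTP63 day 0 library, and its part in the size of this class was not tested.

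**Figure D3:**
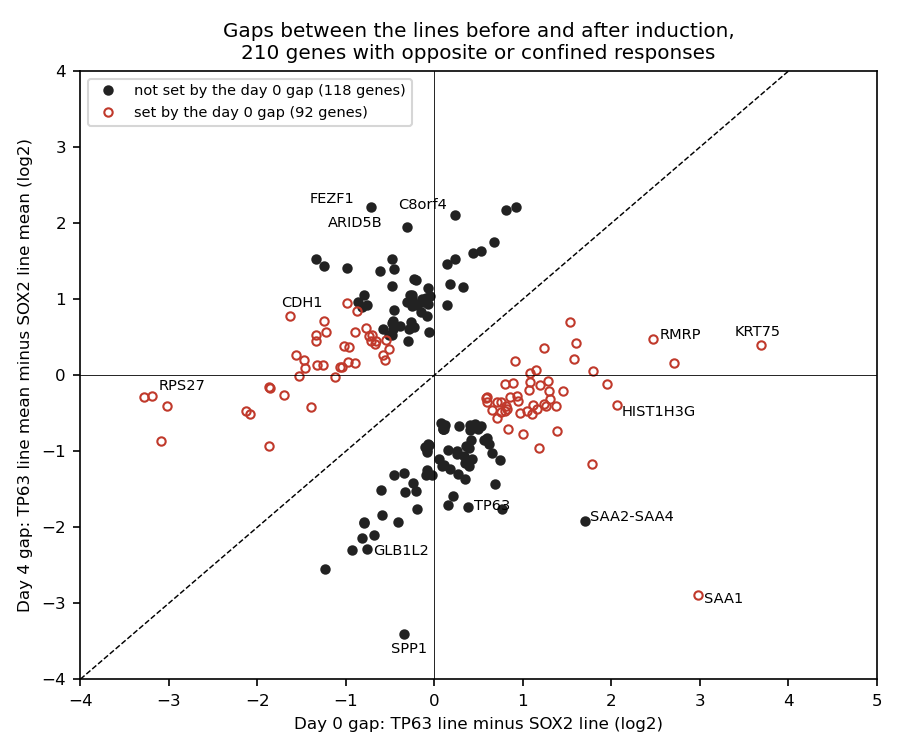
Gap between the lines (TP63 line minus SOX2 line, log2) at day 0 (x axis) and at day 4 (y axis, means of 2 libraries) for the 210 genes with opposite or confined responses; the vertical distance from the dashed line is the difference of responses. The 92 genes set by the day 0 gap (open) lie farther from 0 on the x axis than on the y axis, as RPS27 and KRT75 do, while SPP1 and ARID5B have day 0 gaps of −0.34 and −0.30.

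Each class was formed again with the shSOX2 day 0 library, and then with the shTP63 day 0 library, as the control of both lines. This alternative was chosen after the data were seen, and so were the genes named from it. It used the same day 4 levels, and a confined gene keeps its class only where both day 0 levels lie near each other. Keeping a class is thus a further selection by size and no independent check. In the confined genes kept, the responding line's induced libraries lie apart from the 4 others by construction. Of the 15 opposite genes 1, SPP1, kept its class with either control. Of the confined genes 14 of 73, 6 of 55, 10 of 51 and 2 of 16 did. Those above day 0 in the TP63 line included ARID5B, PARP4, BMF, RHOB, PIK3R3, LMO4, CDA, SYNC, JUNB, CLTB, NACC2, YPEL5 and ANXA11. Among them JUNB, an AP-1 subunit, stood at 5.32 and 4.81 in the induced TP63 libraries against 2.95 to 3.62 in the 4 others, and LMO4, a LIM-only cofactor of transcription, at 4.58 and 4.89 against 2.89 to 3.34. Those below day 0 in the TP63 line were TP63, PKMYT1, TMEM201, TMEM79, HSD11B2 and SPRY4. PKMYT1, a kinase that restrains CDK1, stood at 1.45 and 2.17 in the induced TP63 libraries against 3.15 to 3.60 elsewhere, and HSD11B2, which inactivates cortisol, at 1.58 and 1.25 against 2.52 to 2.68.

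Those above day 0 in the SOX2 line with either control were TSPAN9, LAMP3, WNT5B, BST2, PGRMC1, PVRL1, SLC22A17, VEGFA, BMP7 and 1 transcript known by a clone name. WNT5B, a noncanonical Wnt ligand, stood at 2.45 and 2.61 in the induced SOX2 libraries against 0.99 to 1.35 elsewhere. BMP7, a bone morphogenetic protein, stood at 4.73 and 4.95 against 3.53 to 3.99, and VEGFA, the angiogenic growth factor, at 4.75 and 4.55 against 3.34 to 3.78. BST2, the interferon-induced membrane protein tetherin, stood at 6.23 and 6.09 against 4.60 to 4.95. The rule that kept these genes requires the induced SOX2 libraries to lie above the 4 others, so that separation is no result. Those below day 0 in the SOX2 line were C8orf4 and DDX3X, an RNA helicase, which stood at 3.45 and 3.49 against 4.11 to 4.58.

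**Figure D4:**
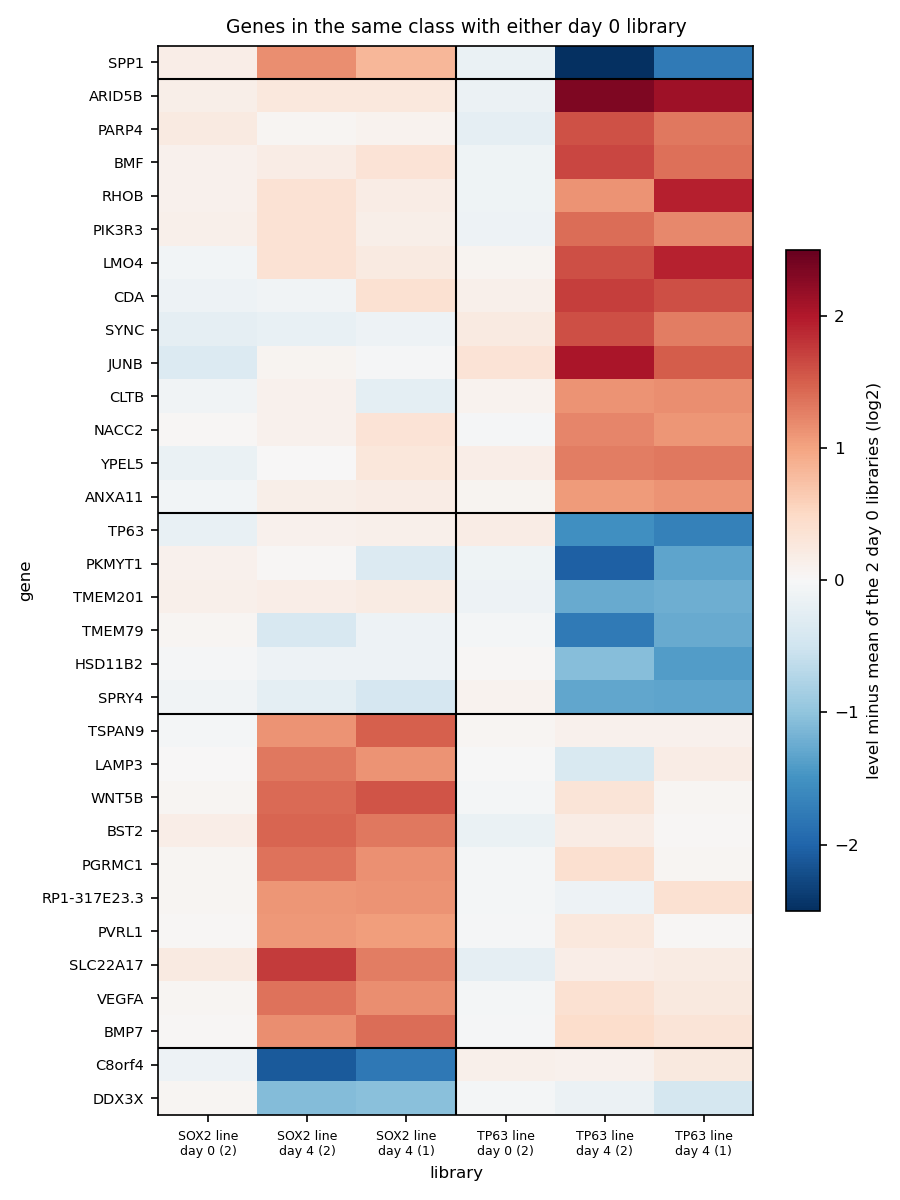
Level in each library (columns) minus the mean of both day 0 libraries (colour, log2, from −2.5 to 2.5), for 32 of the 33 genes (rows) that kept their class with either day 0 library as the control of both lines, grouped by class. In each row the coloured cells are the induced libraries of 1 line, as the rule that kept the genes requires. The exception is SPP1, of the opposite class, which is above day 0 in the SOX2 line and below it in the TP63 line.

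Genes of shared function were counted from lists chosen with earlier results in view, so their counts and medians are descriptions. Over all 10536 genes the median difference was 0.03, with 5531 higher and 5005 lower, 3.72% at least 2-fold higher and 4.84% at least 2-fold lower. In every list limma passed 0 members for the difference. The genes named for a list are among its members with the largest differences.

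Most cell division genes had a lower response in the TP63 line than in the SOX2 line. Of 43 genes of G1/S and DNA replication 35 had a negative difference, with a median of −0.42. Their median response was −0.71 in the SOX2 line and −1.22 in the TP63 line, and 0 of the 5 that were at least 2-fold lower were set by the day 0 gap. Without the induced TP63 library numbered 2 the median difference was −0.17. MCM5, a subunit of the replicative helicase, went from 5.25 to 2.90 and 3.70 in the TP63 line and from 5.18 to 4.24 and 4.65 in the SOX2 line. MCM7 had a difference of −1.06, CHAF1A, a histone chaperone subunit, of −1.10, and CDC45, which activates the helicase, of −1.08. Of 37 genes of G2 and M phase 32 had a negative difference, with a median of −0.57 and median responses of −0.18 and −0.84. This difference came largely from 1 library. The median response was −1.44 in the TP63 library numbered 2 and −0.31 in number 1, against −0.22 and −0.13 in the SOX2 line, and without the TP63 library numbered 2 the median difference was −0.10. TOP2A, DLGAP5, CENPA and TPX2, which act on mitotic chromosomes and the spindle, had differences of −1.11, −1.19, −1.14 and −1.12. DLGAP5 stood at 2.45 and then 2.69 and 2.57 in the SOX2 line, slightly above day 0, and at 2.57 and then 0.99 and 2.12 in the TP63 line. TPX2 stood at 3.69 and then 2.02 and 3.77 in the TP63 line, so only the library numbered 2 was below day 0.

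Replication-dependent histone genes were apart at day 0 and close at day 4. All 46 tested had a negative difference, 36 of them at least 2-fold, and all 36 were set by the day 0 gap. The median difference was −1.35, the median day 0 gap 1.52 and the median day 4 gap 0.19. HIST1H2AJ stood at 5.70 in the day 0 TP63 library and at 2.39 to 3.33 in every other library. HIST1H3G stood at 4.53 in that library and at 1.90 to 2.80 elsewhere. Histone genes are near-identical copies, and most of their transcripts lack poly(A) tails. This library is also the one with the fewest genes above 0, and the part of that in the result was not tested.

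By median, signalling genes downstream of growth factors stood higher in the TP63 line at day 0 and about level at day 4. Single members were not level at day 4: the day 4 gap was −1.72 for ETV4, −1.23 for FOSL1 and 1.63 for EGR1. Of 26 AP-1 subunits, ETV factors and ERK feedback genes 22 had a negative difference, with a median of −0.61, median responses of −0.26 and −0.93, a median day 0 gap of 0.38 and a median day 4 gap of −0.01. With both day 0 libraries as control of both lines the median difference was therefore −0.01. All 4 pairings gave a negative difference in 18 members and a positive one in 3. Of the 4 that were at least 2-fold lower, 0 were set by the day 0 gap. FOSL1, an AP-1 subunit, stood at 4.49 and then 2.79 and 2.61 in the SOX2 line and at 5.38 and then 1.48 and 1.45 in the TP63 line. It was lower at day 4 in both lines, and the difference was −2.13 ± 0.45. ETV4, an ETS factor, started at 4.73 in both lines and stood at 4.04 and 4.09 in the SOX2 line and at 2.42 and 2.27 in the TP63 line at day 4, a difference of −1.72 ± 0.46. EGR1, an immediate early factor, went the other way, with 1.89 ± 0.87 and induced SOX2 libraries at 3.56 and 1.94. Of the ERBB ligands, NRG1 had −1.87 and AREG −2.43, of which 50.7% lay in the day 0 gap.

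Integrated stress response genes, which restore amino acid supply and folding, had a negative difference in 25 of 33 members. The median was −0.56, the median responses 0.43 in the SOX2 line and −0.16 in the TP63 line, and the day 0 gap 0.08. By library, the median response was 0.66 (number 2) and 0.21 (number 1) in the SOX2 line and −0.23 and 0.19 in the TP63 line. The list medians of the libraries numbered 1 were thus close. Gene by gene, however, 19 of the 33 members had a negative difference in all 4 pairings and 2 a positive one. The median difference was −0.55 without the SOX2 library numbered 2 and −0.58 without the TP63 library numbered 2. SLC7A5, a transporter of large amino acids, started at 7.95 and 7.97 in the lines. It stood at 8.65 and 8.30 in the SOX2 line and at 6.49 and 5.82 in the TP63 line at day 4, with no overlap, and its difference of −2.34 ± 0.55 held almost no day 0 gap. DDIT4, an inhibitor of mTORC1, had −1.43 and TRIB3, a pseudokinase, −1.32, with 62.5% and 50.8% in the day 0 gap.

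Among ligands and their pathways, 16 of 19 Wnt pathway genes had a negative difference, with a median of −0.48 and median responses of 0.58 in the SOX2 line and 0.14 in the TP63 line. WNT7B, a Wnt ligand, went from 3.71 to 4.45 and 3.90 in the SOX2 line and from 4.54 to 2.35 and 2.88 in the TP63 line, a difference of −2.39 ± 0.57. DKK3, a Dickkopf family member, had −1.39. Of 14 Notch pathway genes 7 had a positive and 7 a negative difference, with a median of −0.02, and 1, JAG1, was at least 2-fold lower. JAG1, a Notch ligand, went from 6.09 to 6.91 and 6.90 in the SOX2 line and from 5.57 to 5.08 and 4.34 in the TP63 line, a difference of −1.67 ± 0.57. Of 24 TGF-beta and BMP genes 14 had a positive and 10 a negative difference, with a median of 0.01. DLX5 and ID2, targets of BMP signalling, had positive differences. DLX5 stood at 1.12 and 0.73 in the induced SOX2 libraries and at 3.72 and 3.43 in the induced TP63 libraries, from 1.67 and 2.03, a difference of 2.29 ± 0.47. ID2 stood at 3.12 and 2.25 against 5.51 and 5.45, from 2.86 and 3.56, a difference of 2.10 ± 0.60.

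The comparison of the induced lines at day 4 uses no day 0 library, and limma passed 80 genes in it (0.759%). Adjusted p was 0.0402 for SLC7A5, 0.0467 for ETV4, 0.0465 for JAG1, 0.0255 for DLX5 and 0.0326 for ID2. These genes were named for large differences that use the same day 4 libraries, so the calls are not independent of their choice. Among the 210 opposite or confined genes 18 passed, from which nothing is read for the same reason.

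Of 20 basal keratinocyte and hemidesmosome genes 16 had a negative difference, with a median of −0.51. BCAM, a laminin receptor, went from 4.91 to 8.04 and 6.73 in the SOX2 line and from 5.39 to 5.40 and 6.01 in the TP63 line. PDPN, the basal surface protein podoplanin, went from 3.27 to 5.76 and 5.12 against 3.29 to 3.70 and 4.17. Both were higher in both induced SOX2 libraries than in any other. ITGB1, an integrin beta subunit, had a difference of −1.34 with 58.8% in the day 0 gap. In 13 genes of NF-kB, cytokines and the acute phase the median difference was −1.15, but 5 of the 7 that were at least 2-fold lower were set by the day 0 gap, whose median was 0.80. LIF, a cytokine of the interleukin 6 family, had −2.36 ± 0.62, and CCL2, a monocyte chemokine, −2.12 ± 0.84, both with under 30% in the day 0 gap. Of 25 p53 response genes 10 had a positive and 15 a negative difference, with a median of −0.12; PLK2 had −1.68, with 80.0% in the day 0 gap, and TNFRSF10B −1.54, with 17.8%. CD68, the leukocyte marker that passed the filter, had −1.46, with 66.2% in the day 0 gap.

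The oxidative phosphorylation, NRF2 and glycolysis lists had positive median differences, and these were larger when only the libraries numbered 2 were used. Of 73 nuclear-encoded oxidative phosphorylation genes 59 had a positive difference, with a median of 0.42 and median responses of 0.01 in the SOX2 line and 0.41 in the TP63 line. In the libraries numbered 2 the median responses were −0.14 and 0.46, and in those numbered 1 they were 0.17 and 0.27. ATP5E, a subunit of ATP synthase, went from 7.63 to 7.43 and 7.15 in the SOX2 line and from 7.65 to 8.32 and 8.40 in the TP63 line, and UQCRC2, of complex III, differed by 1.06. NDUFA4 differed by 1.21, all of it from a low day 0 TP63 level of 3.02 against 4.31. Of 27 NRF2 and glutathione genes 21 had a positive difference, with a median of 0.53. Their median responses were −0.02 and 0.81 in the libraries numbered 2 and 0.22 and 0.18 in those numbered 1. Without the TP63 library numbered 2 the median difference was 0.12. Gene by gene, 11 of the 27 had a positive difference in all 4 pairings and 2 a negative one. OSGIN1 had 1.61, with 40.3% in the day 0 gap. NQO1, a quinone reductase, had 1.31 and GPX2, a glutathione peroxidase, 1.16, and both were set by the day 0 gap, with 62.1% and 61.4% in it. Of 23 glycolysis genes 17 had a positive difference, with a median of 0.32 and median responses of −0.47 in the SOX2 line and −0.08 in the TP63 line. In the libraries numbered 1 these were −0.25 and −0.18, and without the SOX2 library numbered 2 the median difference was 0.05. GAPDH stood at 7.74 and 9.21 in the induced SOX2 libraries, apart from each other, and at 9.69 to 10.31 in the 4 others. PGK1, another glycolytic enzyme, had 1.24. TXNIP, an inhibitor of glucose uptake, was higher at day 4 in both lines, with responses of 1.03 and 2.69.

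The 78 cytosolic ribosomal protein genes had a median difference of 0.25, and 10 of the 11 that were at least 2-fold higher were set by the day 0 gap, RPL32 with 1.71 among them. The 8 mitochondrially encoded genes had a median difference of 0.29 beside a median day 0 gap of −2.62, the TP63 line lying below the SOX2 line at both times. MT-ND1 stood at 11.69 and then 11.16 and 11.01 in the SOX2 line and at 7.81 and then 8.51 and 9.52 in the TP63 line, so its difference of 1.81 closed part of a gap of −3.88. MT-CO1 had the same form, with 1.53 against −3.51. Of 49 squamous differentiation genes 15 were tested, and 10 had a positive and 5 a negative difference, with a median of 0.21. CNFN, which encodes the cornified envelope protein cornifelin, was higher at day 4 in both lines. Its responses were 0.65 in the SOX2 line and 2.06 in the TP63 line, a difference of 1.41 ± 0.41. SLPI had 1.97, of which 93.8% lay in the day 0 gap. SPRR3 had 1.58, of which 99.8% lay in the day 0 gap because both lines were near 0 at day 4. Among the other lists with at least 5 tested members, medians ran from −0.59 for the hypoxia response to 0.55 for fibrillar collagens and mesenchymal genes.

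**Figure D5:**
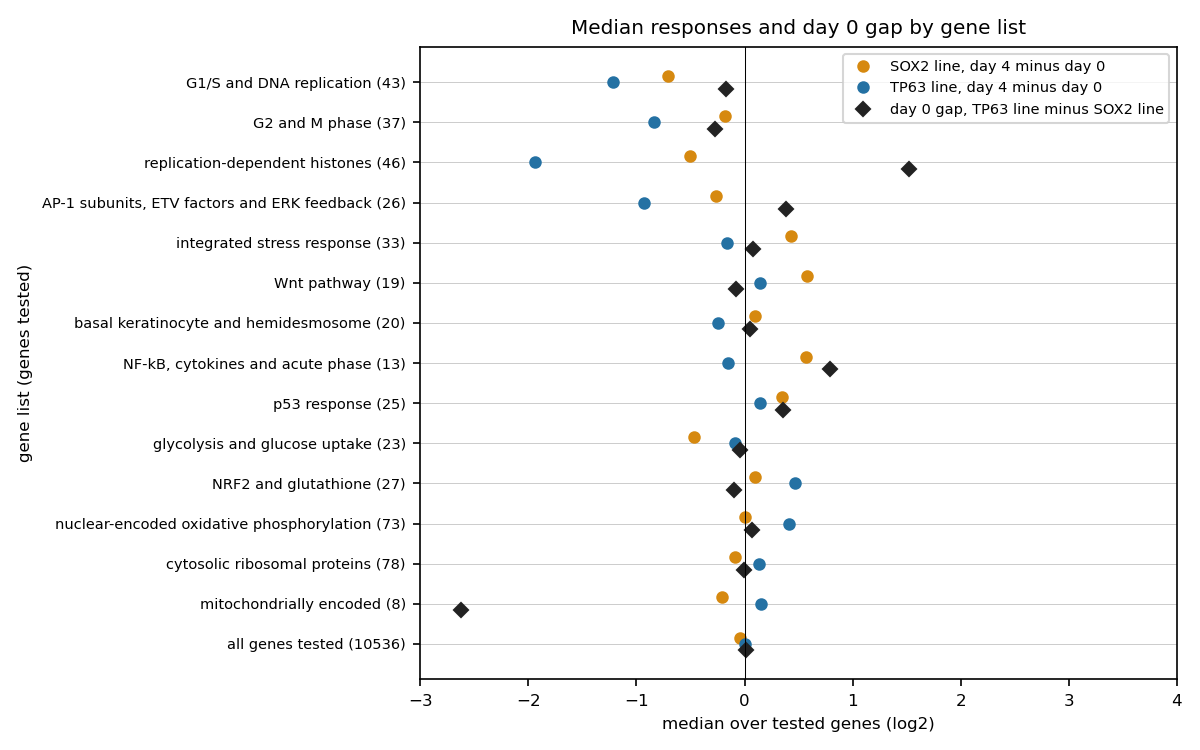
Median over the tested genes of each list (number in parentheses) of the day 4 response in the SOX2 line (orange circles) and in the TP63 line (blue circles) and of the day 0 gap between the lines (black diamonds), on the log2 scale. The histone list has a day 0 gap of 1.52 and the mitochondrially encoded list one of −2.62. The stress response and oxidative phosphorylation lists have day 0 gaps near 0 and median responses that differ between the lines. In the libraries numbered 1 alone these medians lay closer, at 0.21 (SOX2 line) and 0.19 (TP63 line) for the stress response. For oxidative phosphorylation they were 0.17 and 0.27.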

How the data were processed

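The deposited table gives 1 value per gene and library. Per the file headers the values are RPKM, but the deposited values are on a log2 scale, read as log2(RPKM + 1) from their range and shared maximum; the base was assumed, and the authors' quantile normalization between libraries is read from the values. The submitters' processing notes name the build hg19. Neither aligner nor counter nor annotation is given in these sources. Linear values for the filter were 2 to the power of the value, minus 1. limma 3.58.1 in R 4.3.3 was fitted to the deposited log2 values with 4 group means, a mean-variance trend, 2 residual and 5.53 prior degrees of freedom; p-values are two-sided and adjusted after Benjamini and Hochberg. The fit was tested on simulated data.

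The members, the lists and the naming rule were chosen with earlier results of these data known. The rule named the hairpin targets, up to 8 opposite genes per direction, 6 confined genes per line and direction and 4 genes set by the day 0 gap per direction, all above 0 in every library, and up to 4 members per list; other names are marked. Same-numbered libraries were not treated as pairs. The alternatives varied the filter, the pseudocount, the block, the day 0 control, the size limits and the libraries used. Read depth is unknown. One gene that kept its class is not reported here.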

Additional observations from a re-analysis of the deposited data

Results flagged for a closer look

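In 42 of the 123 genes named, every day 4 library of one line lay above its day 0 level and every day 4 library of the other below it. No difference passed limma's test, and each line has 1 day 0 library. Over all genes tested 14.3% met this condition, and genes were named for their size, so the share is no result.

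Among the opposite genes the differences were −5.88 for SAA1, −3.62 for SAA2-SAA4, −3.06 for SPP1, −2.95 for RNU2-6P, −2.12 for TERC, −1.99 for RMRP, −1.72 for RP11-304L19.4 and −1.52 for HS3ST3A1. They were 2.92 for FEZF1, 2.86 for ALDH1A1, 2.69 for RP11-560I19.4, 2.40 for PRR15, 1.95 for RPS26P47, 1.94 for RAB11FIP1 and 1.33 for RP11-950C14.3. Among the confined genes they were 2.99 for RP11-543P15.1, 2.91 for RPS27, 1.85 for PARP4, −2.45 for HIST1H3G, −2.12 for TP63, −1.59 for SERPINE2, −1.57 for ALG3, −1.41 for C1orf27, −1.18 for TMEM201, −1.86 for NXPH4, −1.68 for DPM3 and −1.52 for SLC1A5.

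Among genes in neither class they were −2.39 for WNT7B, −2.36 for LIF, −2.34 for SLC7A5, −1.68 for PLK2, −1.67 for JAG1, −1.54 for TNFRSF10B, −1.39 for DKK3, −1.34 for ITGB1, −1.32 for TRIB3, −1.19 for DLGAP5 and −1.14 for CENPA. They were 2.29 for DLX5, 1.81 for MT-ND1, 1.24 for PGK1 and 1.06 for ATP5E.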

How the results depend on the processing

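Each line has 1 day 0 library, so a day 0 level and a response cannot be told apart, and depth is unknown. Of 123 named genes 91 had a difference that moved by over 1.5 times under at least 1 alternative, PLK2 for example from −2.05 to −0.34; since 0 passed in the first place, keeping the side of the threshold says nothing of stability. With both day 0 libraries as control of both lines, the difference equals the day 4 gap and turned for 11 genes: RP11-543P15.1 (−0.29), RPS27 (−0.28), RP11-175B9.3 (−0.41), KRT75 (0.40), RP11-1020M18.10 (0.16), HIST1H2AJ (0.23), MT-ND1 (−2.07), MT-CO1 (−1.98), RPL32 (−0.16), NDUFA4 (−0.082) and RMRP (0.48). Of 168 alternative list medians 31 moved by more than their spread over pairings of libraries, 16 of them in the AP-1 and NF-kB lists, and 5 turned, for histones (0.19), p53 genes (0.070), NF-kB genes (0.010) and mitochondrially encoded genes (−2.32), the last also without the libraries numbered 1; its range over libraries left out was −0.034 to 0.466. That control gave 1 limma call for the difference, DLX5 (2.65, adjusted p 0.0367), 291 in the TP63 line and 2 in the SOX2 line, and 4 and 15 opposite genes.

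Counts are given in the order opposite above and below day 0 in the TP63 line, then confined above and below in the TP63 line, then above and below in the SOX2 line. A minimum mean of 5 gave 3, 4, 39, 29, 25 and 9, with 1 call in the TP63 line. A pseudocount of 5 gave 0, 3, 19, 27, 11 and 5, 1 call in the SOX2 line, and 61.5% set by the day 0 gap. Without the libraries numbered 1 they were 67, 136, 291, 275, 300 and 147, with 23.9% set. With shSOX2 day 0 as control of both lines, opposite above was 1, confined below in the TP63 line 104 and in the SOX2 line 7; with shTP63 day 0 the counts after the first were 17, 37, 22, 105 and 30. Opposite at 2-fold left 1 and 2, flat within 0.3 left 39, 17, 15 and 8 confined, and confined at 1.5-fold gave 327, 264, 209 and 158. A day 0 share of 0.25 or 0.75 set 62.9% or 22.9%. No filter gave 154 calls in the TP63 line.

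Leaving out 1 day 4 library in turn gave 0 to 5 calls for the difference, 0 to 80 in the TP63 line and 0 to 11 in the SOX2 line; the lone library was assumed to vary like the other pair. Without shTP63 day 4 number 2, limma called KRT75, RPS27, MT-ND1, MT-CO1 and RN7SL1, named after its value was seen. The counts ran 14 to 36, 20 to 60, 122 to 187, 106 to 191, 79 to 176 and 26 to 91, and the share set from 26.7% to 39.7%; fewer libraries must then meet the size rules. Deviations of same-numbered day 4 libraries correlated at −0.07 across genes, which does not tell what the numbers mark. With the replicate block limma made 0 calls for the difference and 0 in the TP63 line.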
